A study of Homo sapiens with 16 samples.

Results

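The genes described here are 40 genes of mitosis, the stage of the cell cycle at which the copied chromosomes are separated and the cell divides. They were taken by symbol from a table of 23669 genes, of which 15520 had enough counts to be tested, and all 40 were among those tested. The cells were HCT116, an established human colorectal carcinoma line, and their poly(A) RNA was read on an Ion Torrent Proton sequencer. There were 4 derived lines. One carried a stable shRNA (a short hairpin RNA that lowers a target's mRNA) against TIP60, the acetyltransferase encoded by KAT5 (shTIP60). The others were one with a stable shRNA against CDK8, the kinase subunit of Mediator (shCDK8), one with HIF1A deleted (HIF1A-null), and one with a stable non-targeting shRNA (shNT). HIF1A encodes HIF-1alpha, the part of hypoxia-inducible factor that is degraded when oxygen is plentiful. Every line was kept for 24 h at 1% oxygen (hypoxia) or at 21% oxygen (normoxia). Each of the 8 combinations had 2 libraries, which the series describes as independent biological replicates; they are called A and B after the 2 runs of library numbers in the table. Each target was altered in 1 line only, so effects of the target, of the hairpin's other targets and of a line's own history cannot be told apart. The labels give no hairpin for the HIF1A-null line, so its comparison with shNT also crosses that difference.

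Mitosis is driven by B-type cyclins bound to the kinase CDK1, which CDC25 phosphatases switch on. Polo-like and Aurora kinases build the spindle with the help of kinesin motors, kinetochore proteins tie chromosomes to its microtubules, and the spindle assembly checkpoint holds back division until every chromosome is attached. CDC20 then activates the anaphase-promoting complex, a ubiquitin ligase that destroys securin and cyclin B, and cytokinesis splits the cell. The mRNAs of most of these genes are low in G1 and accumulate in G2 and mitosis, so in a dividing culture their level reflects both how many cells are in those phases and how much RNA each such cell holds.

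Many genes of this kind carry 2 short promoter elements, the cell cycle homology region (CHR), through which the MuvB complexes act, and the CCAAT box, which binds NF-Y. RefSeq promoter windows (built on GRCh38.p14, 250 bases before to 50 after the annotated start) were supplied for 33 of the 40 genes, 6 of them with more than 1 entry, of which the first was used. Each of the 33 windows matched GRCh37, the build of the counts, at 1 place. The 5 sequences printed here are the 250 bases before the start of genes that the results turn on: the cyclins CCNB1 and CCNB2, the kinesin KIF20A, HMMR, and CDC25B, which moved against most of the others. They run 5′ to 3′ on the gene's strand, with the letters of CHR (TTTGAA or TTCGAA) and of CCAAT in capitals wherever they occur on either strand. Their positions on GRCh37 are chr15:59397095-59397344, plus strand for CCNB2, chr5:68462727-68462976, plus strand for CCNB1, chr5:137514551-137514800, plus strand for KIF20A, chr5:162887388-162887637, plus strand for HMMR and chr20:3767348-3767597, plus strand for CDC25B.
CCNB2: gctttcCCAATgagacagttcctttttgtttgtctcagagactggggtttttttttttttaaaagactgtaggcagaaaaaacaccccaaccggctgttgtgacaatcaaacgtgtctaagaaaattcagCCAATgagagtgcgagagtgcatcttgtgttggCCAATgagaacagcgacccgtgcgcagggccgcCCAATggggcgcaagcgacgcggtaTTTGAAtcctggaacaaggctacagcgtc
CCNB1: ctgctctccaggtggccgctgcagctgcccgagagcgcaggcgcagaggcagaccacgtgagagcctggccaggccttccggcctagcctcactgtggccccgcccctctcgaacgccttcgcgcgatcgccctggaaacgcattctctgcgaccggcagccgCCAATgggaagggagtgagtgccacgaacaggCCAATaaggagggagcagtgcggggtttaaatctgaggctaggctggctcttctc
KIF20A: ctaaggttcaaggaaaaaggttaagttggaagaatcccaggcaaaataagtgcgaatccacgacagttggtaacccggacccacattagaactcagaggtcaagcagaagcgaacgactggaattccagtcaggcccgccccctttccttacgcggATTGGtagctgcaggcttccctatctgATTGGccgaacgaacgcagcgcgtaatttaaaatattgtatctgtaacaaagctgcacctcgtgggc
HMMR: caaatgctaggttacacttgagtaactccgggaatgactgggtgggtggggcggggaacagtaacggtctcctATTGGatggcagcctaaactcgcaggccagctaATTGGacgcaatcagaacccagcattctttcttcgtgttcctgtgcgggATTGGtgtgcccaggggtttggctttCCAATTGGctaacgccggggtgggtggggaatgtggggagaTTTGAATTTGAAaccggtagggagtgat
CDC25B: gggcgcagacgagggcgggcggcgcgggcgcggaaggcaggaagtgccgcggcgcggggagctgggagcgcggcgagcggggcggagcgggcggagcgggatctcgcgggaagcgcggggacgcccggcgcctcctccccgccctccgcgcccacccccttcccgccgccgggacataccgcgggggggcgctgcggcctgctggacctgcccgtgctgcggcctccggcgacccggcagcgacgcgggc

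CCNB2 held 1 CHR match and 4 CCAAT matches in its window, HMMR 2 and 5, CCNB1 and KIF20A 2 CCAAT matches each with no match to the CHR letters, and CDC25B neither. Over all 33 genes with a window, the CHR letters were found in 24 (72.7%), against 16.6% of the 27303 promoters in the table. CCAAT was found in 25 (75.8%), against 35.7%, and both in 20 (60.6%), against 6.58%. The core letters of the hypoxia response element, ACGTG and GCGTG on either strand, were in 24 (72.7%), against 48.4%; these can overlap on opposite strands, as in CACGTG, and TTCGAA is its own reverse complement. A match describes letters in a window of fixed length and says nothing of whether a factor binds there, and no match says only that these letters are not in the window. AURKA, TPX2, BIRC5, BUB3, TTK, UBE2C and FOXM1 had no window in the table.

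Library totals ran from 26620086 to 39401494 counts, and the 40 genes had 278 to 34277 counts per library, far above a floor of 3 counts (0.0716 to 0.112 CPM). CPM are counts scaled to a common library size after trimmed-mean scaling (TMM), and "called" means an adjusted p under 0.05 in edgeR's quasi-likelihood test, adjusted by Benjamini-Hochberg over all 15520 genes. Every log2 fold change is given ± its standard error. The targeted genes followed the labels for both hairpins: KAT5 averaged 21.5 ± 0.703 CPM in shTIP60 hypoxia and 90.5 ± 4.28 CPM in shNT hypoxia. CDK8 averaged 5.64 ± 0.274 CPM in shCDK8 hypoxia and 28.1 ± 0.280 CPM in shNT hypoxia (SD, n = 2 each). HIF1A averaged 13.6 ± 0.763 CPM in HIF1A-null normoxia and 107 ± 0.805 CPM in shNT normoxia, but 48.9 ± 12.4 CPM in HIF1A-null hypoxia and 65.9 ± 6.55 CPM in shNT hypoxia. Which exons were deleted is not given in the sources used here and antisense genes overlap HIF1A, so its count is a limited check of the hypoxia libraries labelled HIF1A-null. All 8 epithelial markers were detected in every library (4359 to 12030 CPM summed), while PTPRC, CD3E, PECAM1, CDH5, LUM and DCN stayed at or under 0.138 CPM. The fibroblast list summed to 43.6 to 82.7 CPM in hypoxia and 21.7 to 40.7 CPM in normoxia, nearly all of it COL1A1, and 2 to 4 of its 6 genes were at 0. The blood and endothelial list summed to 30.0 to 117 CPM in hypoxia and 7.21 to 24.7 CPM in normoxia, nearly all of it CD68, and 0 to 4 of its 6 genes were at 0. The part of these lists in the results was not tested.

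Per length of the canonical transcript, UBE2C was the most abundant of the 40 (a mean over 16 libraries of 187 CPM per kb), followed by CDC20 (174), CDC25B (139), PTTG1 (122) and CCNB1 (121). SGOL1 (5.47) and CENPE (4.03) were the least abundant. The highest library exceeded the lowest 1.75-fold for BUB3 and 5.81-fold for CDC25B, with a median of 2.57-fold over the 40. Replicates of a group differed as a block: in shNT normoxia library A lay above B for 36 of 40 genes (median A minus B 0.27 on the log2 scale), and in shNT hypoxia B lay above A for 36 (-0.25). In HIF1A-null normoxia A lay above B for 34 (0.30), and in shCDK8 normoxia B lay above A for 32 (-0.24). Between the shTIP60 replicates the median difference was 0.07 in normoxia and 0.10 in hypoxia. Results that rest on shNT, HIF1A-null or shCDK8 are therefore also given within libraries A and within libraries B. Reads of near-identical copies are uncertain: KIF4B took 15 to 20.9% of the counts of KIF4A and KIF4B together, and PTTG2 and PTTG3P took 4.95 to 7.67% and 9.56 to 12.9% of theirs with PTTG1. Exons of 13 of the genes overlap another gene, 11 of them on the opposite strand, and 11 have a pseudogene of the same symbol; the strand setting of the counting is not given in the sources used here.

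**Figure D1:**
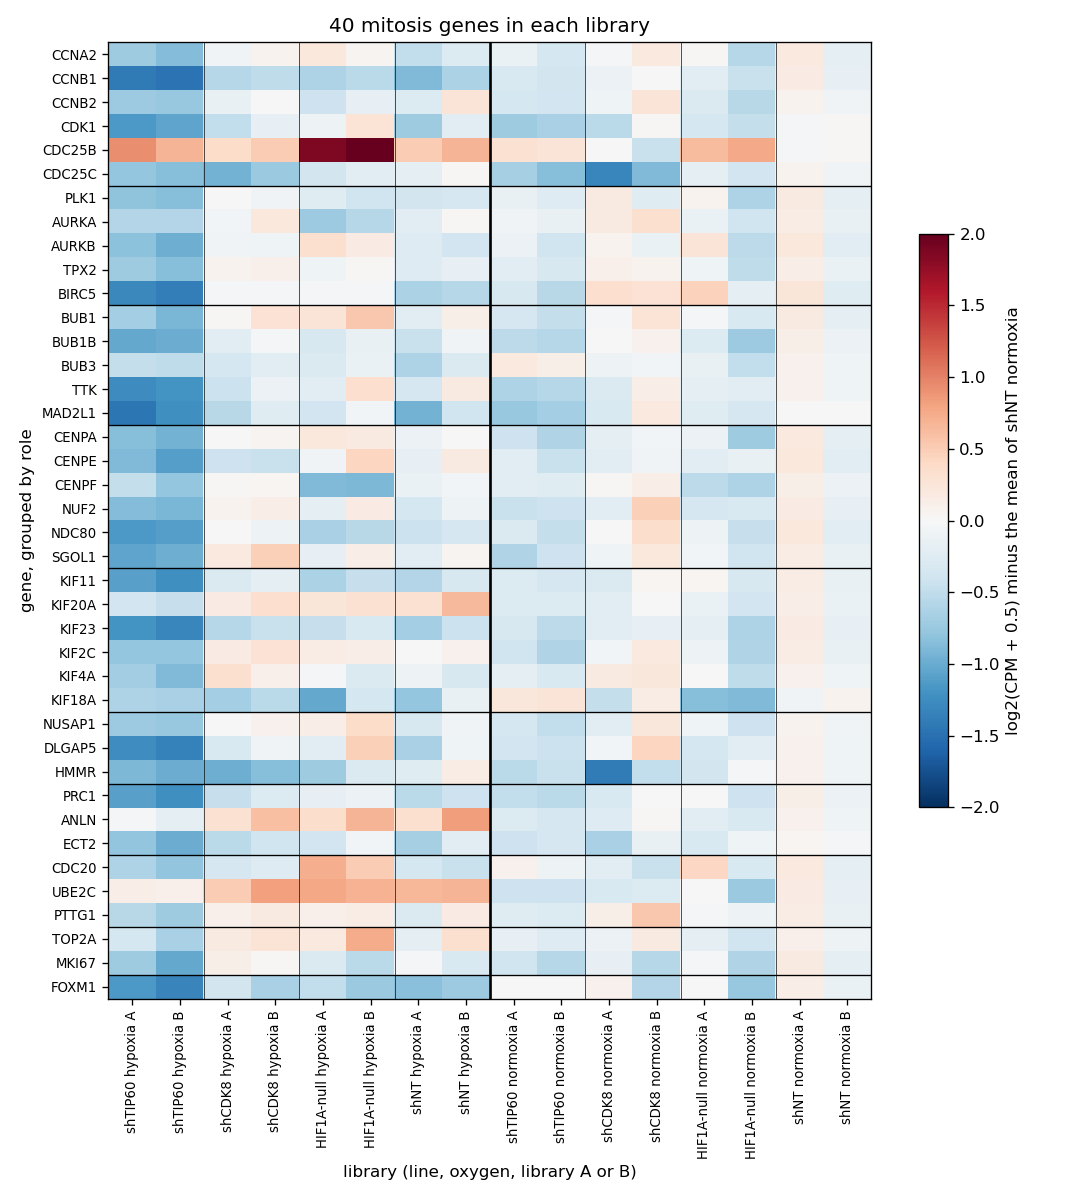
Level of each of the 40 genes (rows, grouped by role) in each of the 16 libraries (columns), as log2(CPM + 0.5) minus the mean of the shNT normoxia libraries. The shTIP60 hypoxia columns are blue for nearly every gene, while CDC25B, UBE2C and ANLN are red in most hypoxia columns.

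The clearest pattern was low expression of mitosis genes in hypoxic shTIP60 cells. Compared with hypoxic shNT cells, 31 of the 40 genes fell in hypoxic shTIP60 cells and none rose. That is 77.5% of the 40, against 10.5% of all genes tested, and the median log2 fold change was -0.69, against 0.00 over all genes. Both shTIP60 libraries lay below both shNT libraries for 37 genes (31.4% of all genes) and above them for CDC25B alone (32.6%). With the replicate pairs as a block 36 fell, and DESeq2 called 32, all lower. The difference was present within libraries A (37 of 40 lower, median -0.51) and larger within libraries B (39 lower, median -0.83). Leaving out a library cut the calls, most without shNT hypoxia B or shTIP60 hypoxia B and least without shNT hypoxia A. Such a fit leaves 1 library in a group, and fewer of all genes tested were then called as well. The calls of CCNB1, CDC25C, TTK, CENPA, CENPE, NDC80, SGOL1, KIF20A and KIF2C, 9 of the 31, were kept whichever single library was left out. In bulk RNA, fewer cells in G2 and mitosis and less RNA per such cell cannot be told apart. Other markers moved in the same comparison: of 8 epithelial markers KRT8, KRT18 and CLDN4 rose and EPCAM fell. CD68, a lysosomal protein used as a macrophage marker, rose (1.45 ± 0.19, adjusted p = 5.23e-05), while PTPRC, the common marker of blood cells, had at most 2 counts in any library. The part of these markers in the result was not tested.

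By role, 4 of 6 genes of the cyclin, CDK1 and CDC25 group fell in hypoxic shTIP60 cells relative to hypoxic shNT cells. CCNB1, the main mitotic cyclin, had 124 and 119.5 CPM in shTIP60 hypoxia, against 181 and 215 CPM in shNT hypoxia (log2 fold change -0.70 ± 0.14, adjusted p = 0.00196). CCNB2, its close relative, had 47.7 and 46.6 CPM in shTIP60 hypoxia, against 65.1 and 94.3 CPM in shNT hypoxia (log2 fold change -0.76 ± 0.17, adjusted p = 0.00489). Both cyclins had non-overlapping groups, and in each the shNT replicates were farther apart than the shTIP60 replicates; the call of CCNB2 was lost without shNT hypoxia B (-0.47). CDC25C, a phosphatase that activates CDK1 at mitotic entry, had 17.7 and 16.7 CPM in shTIP60 hypoxia and 26.7 and 31.1 CPM in shNT hypoxia (log2 fold change -0.75 ± 0.16, adjusted p = 0.00363). CDK1 itself fell (-0.66 ± 0.19, adjusted p = 0.0214), a call lost without shNT hypoxia B (-0.40), shTIP60 hypoxia A (-0.62) or shTIP60 hypoxia B (-0.71). CCNA2, the S-phase and G2 cyclin, was lower without passing the test (-0.41 ± 0.19, adjusted p = 0.133), and CDC25B was higher without passing it (0.22 ± 0.15, adjusted p = 0.332).

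Of the Polo and Aurora kinases and their partners, 3 of 5 fell. BIRC5 (survivin), which works with AURKB in the chromosomal passenger complex, had 113 and 106 CPM in shTIP60 hypoxia, against 181 and 188 CPM in shNT hypoxia (log2 fold change -0.75 ± 0.19, adjusted p = 0.00865). Both pairs were tight and far apart, yet the call was lost without shNT hypoxia B (-0.72) or shTIP60 hypoxia B (-0.70). AURKA, the spindle-pole kinase, and TPX2, its activator on microtubules, fell as well (-0.50 and -0.57 on the log2 scale). The call of AURKA was lost without shNT hypoxia B (-0.37), shTIP60 hypoxia A (-0.50) or shTIP60 hypoxia B (-0.50), and that of TPX2 without shNT hypoxia B (-0.52) or shTIP60 hypoxia B (-0.50). PLK1 and AURKB were lower in both shTIP60 libraries without passing the test (-0.47 ± 0.19, adjusted p = 0.0989 for PLK1, -0.57 ± 0.21, adjusted p = 0.0568 for AURKB).

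In the spindle assembly checkpoint 4 of 5 genes fell. TTK (MPS1), the kinase that recruits the other checkpoint proteins to kinetochores, showed the largest drop of all 40 genes, with 25.6 and 26.6 CPM in shTIP60 hypoxia, against 48.7 and 70.2 CPM in shNT hypoxia (log2 fold change -1.19 ± 0.20, adjusted p = 6.24e-04). The shTIP60 level of TTK was 0.44 times the shNT level, and it was the 1 member called when the test asked for more than a 1.5-fold difference. BUB1 (log2 fold change -0.76), BUB1B (-0.77) and MAD2L1 (-0.70) fell too. The call of BUB1 was lost without shNT hypoxia B (-0.59) or shTIP60 hypoxia B (-0.65), that of BUB1B without shNT hypoxia B (-0.57) and that of MAD2L1 without shNT hypoxia B (-0.40) or shTIP60 hypoxia A (-0.59). BUB3, which loads BUB1 and BUB1B onto kinetochores, had 239 and 234 CPM in shTIP60 hypoxia and 216 and 273 CPM in shNT hypoxia (log2 fold change -0.05 ± 0.15, adjusted p = 0.859). The BUB3 groups overlapped, with shNT hypoxia A the lowest of the 4 libraries.

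All 6 centromere and kinetochore genes fell. CENPE, a kinetochore motor, had 21.1 and 18.2 CPM in shTIP60 hypoxia, against 35.2 and 44.7 CPM in shNT hypoxia (log2 fold change -1.02 ± 0.19, adjusted p = 9.64e-04). SGOL1 (shugoshin), which protects cohesion at centromeres, had 8.54 and 9.13 CPM in shTIP60 hypoxia, against 15.8 and 19.1 CPM in shNT hypoxia (log2 fold change -0.98 ± 0.19, adjusted p = 0.00153). CENPF, a large kinetochore and nuclear matrix protein, had 198 and 161 CPM in shTIP60 hypoxia, against 251 and 266 CPM in shNT hypoxia (log2 fold change -0.53 ± 0.13, adjusted p = 0.00826). None of the 3 genes had overlapping groups; CENPF had the narrowest gap, and its call was lost without shNT hypoxia B (-0.49) or shTIP60 hypoxia B (-0.39). CENPA, the histone H3 variant that marks centromeres (-0.85), and NDC80 (-0.76) kept their calls in every leave-one-out fit, while that of NUF2, the partner of NDC80 (-0.67), was lost without shNT hypoxia B (-0.55), shTIP60 hypoxia A (-0.70) or shTIP60 hypoxia B (-0.65).

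Among kinesins 5 of 6 fell. KIF20A, which carries the passenger complex to the central spindle, had 81.1 and 76.8 CPM in shTIP60 hypoxia and 130.4 and 165 CPM in shNT hypoxia (log2 fold change -0.90 ± 0.15, adjusted p = 3.94e-04), the smallest adjusted p of the 40. KIF2C (MCAK), a microtubule depolymerase and per length the most abundant of these kinesins, had 98.8 and 99.3 CPM in shTIP60 hypoxia, against 169 and 179.5 CPM in shNT hypoxia (log2 fold change -0.82 ± 0.16, adjusted p = 0.00183). Neither gene's groups overlapped, and both calls were kept with any single library left out. KIF11 (Eg5), which pushes spindle poles apart (-0.72), KIF23 (-0.71) and the chromosome-bound KIF4A (-0.58) fell as well. The call of KIF11 was lost without shNT hypoxia B (-0.58) or shTIP60 hypoxia B (-0.65), and that of KIF23 without shNT hypoxia B (-0.58) or shTIP60 hypoxia B (-0.67). The call of KIF4A was lost without shNT hypoxia A (-0.48), shTIP60 hypoxia A (-0.69) or shTIP60 hypoxia B (-0.49). KIF18A, which dampens chromosome movements at the metaphase plate, had 43.3 and 42.4 CPM in shTIP60 hypoxia, inside the shNT hypoxia range of 38.8 and 60.1 CPM (log2 fold change -0.21 ± 0.23, adjusted p = 0.566).

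The 3 spindle microtubule proteins NUSAP1, DLGAP5 and HMMR fell, and so did PRC1 and ANLN of the 3 cytokinesis genes, UBE2C and PTTG1 of the 3 genes around the anaphase-promoting complex, and both chromosome structure genes, TOP2A and MKI67. DLGAP5 (HURP), which stabilises microtubules near chromosomes, had 42.7 and 39.6 CPM in shTIP60 hypoxia, against 64.8 and 96.2 CPM in shNT hypoxia (log2 fold change -0.97 ± 0.22, adjusted p = 0.00456). NUSAP1, a nucleolar and spindle protein, had 92.4 and 90.9 CPM in shTIP60 hypoxia, against 123 and 146 CPM in shNT hypoxia (log2 fold change -0.56 ± 0.16, adjusted p = 0.0218). MKI67 (Ki-67), the coat protein of mitotic chromosomes, had 500.3 and 403 CPM in shTIP60 hypoxia, against 802 and 663 CPM in shNT hypoxia (log2 fold change -0.70 ± 0.20, adjusted p = 0.0207). None of the 3 had overlapping groups, and for DLGAP5 and NUSAP1 shNT hypoxia B was the highest library, for MKI67 shNT hypoxia A. The call of DLGAP5 was lost without shNT hypoxia B (-0.66) or shTIP60 hypoxia B (-0.92), that of NUSAP1 without shNT hypoxia B (-0.43), shTIP60 hypoxia A (-0.57) or shTIP60 hypoxia B (-0.55), and that of MKI67 without shNT hypoxia A (-0.56) or shTIP60 hypoxia B (-0.55). ANLN (anillin), the scaffold of the contractile ring, fell by 0.71 on the log2 scale, a call lost without shNT hypoxia B (-0.43) or shTIP60 hypoxia B (-0.63). CDC20, the activator of the anaphase-promoting complex, had 196 and 175 CPM in shTIP60 hypoxia and 237 and 221 CPM in shNT hypoxia (log2 fold change -0.30 ± 0.20, adjusted p = 0.29). FOXM1, a transcription factor of the G2 programme, had 88.4 and 79.2 CPM in shTIP60 hypoxia, against 111 and 119 CPM in shNT hypoxia (log2 fold change -0.45 ± 0.23, adjusted p = 0.177). ECT2, the activator of RhoA in cytokinesis, was also lower without a call (-0.48 ± 0.18, adjusted p = 0.0685).

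**Figure D2:**
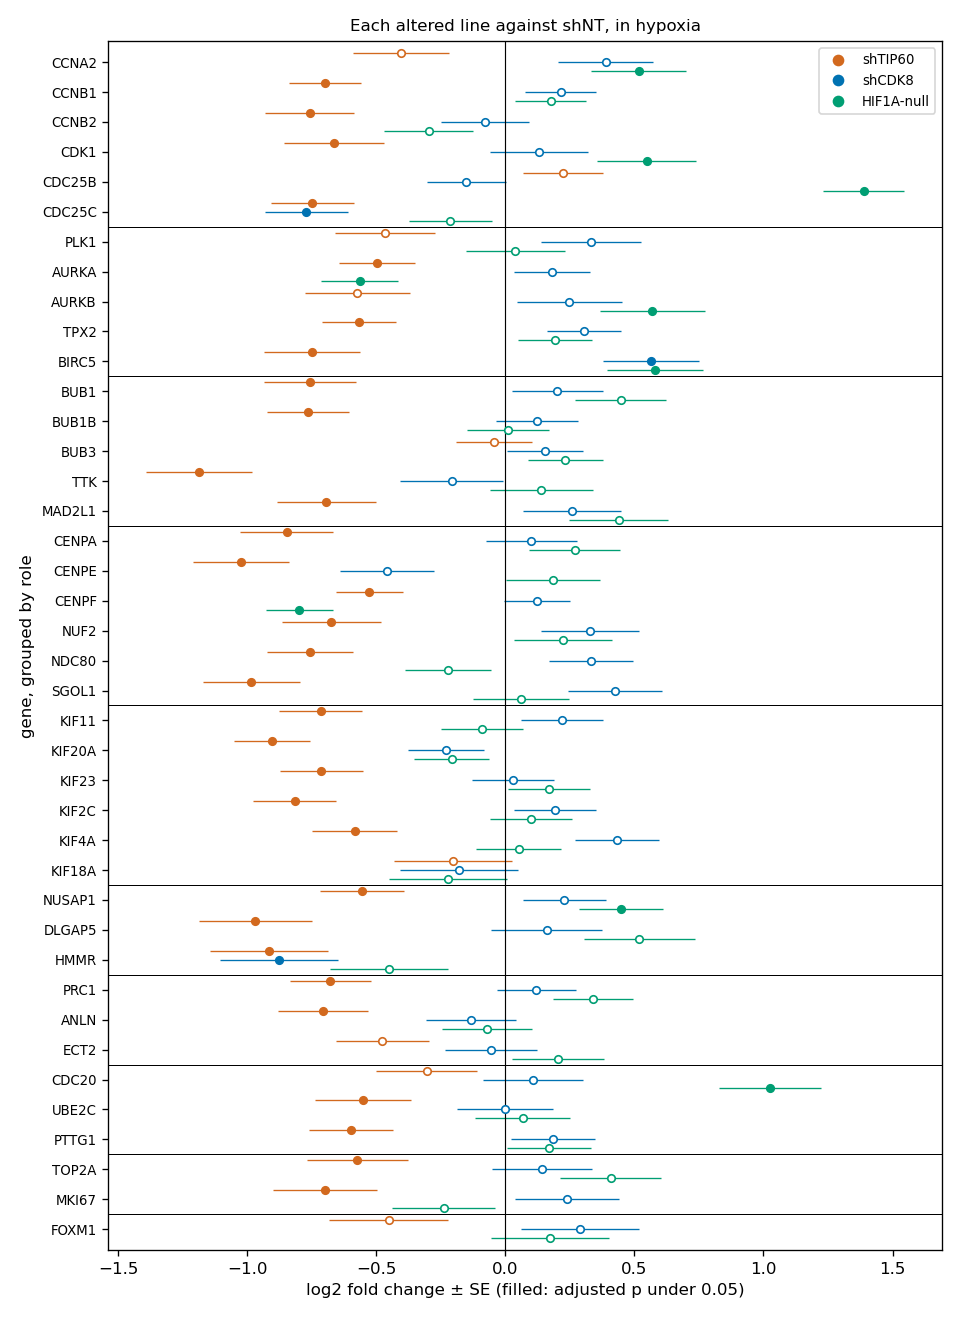
Log2 fold change ± SE of each gene in each altered line against shNT, all in hypoxia, by role; filled points have an adjusted p under 0.05. The shTIP60 points lie left of 0 for 39 of 40 genes, with TTK farthest at -1.19, whereas HIF1A-null and shCDK8 points lie on both sides and CDC25B reaches 1.39 in HIF1A-null.

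The hypoxic shTIP60 libraries were also low against the other lines. Both shTIP60 hypoxia libraries were the lowest of all 16 libraries for 29 of the 40 genes, where 7.52% of all genes tested showed this. Against hypoxic shCDK8 cells 33 of 40 genes fell in hypoxic shTIP60 cells (18.1% of all genes; median -0.79), and against hypoxic HIF1A-null cells 34 fell (24.6%; median -0.83); these 2 comparisons were added after the values of the genes had been seen. Of those calls, 25 of 33 and 25 of 34 were kept whichever library was left out. Within libraries A the medians were -0.69 against shCDK8 and -0.67 against HIF1A-null, and within libraries B -0.90 and -0.91. The 3 comparisons share the shTIP60 hypoxia libraries, so they are not independent of each other. Of the epithelial, fibroblast and blood markers (log2 fold change in parentheses), against shCDK8 KRT19 (0.77), CLDN4 (0.54), COL1A1 (0.78), PDGFRB (2.54) and CD68 (0.59) rose, and none fell. Against HIF1A-null ELF3 (3.25), COL1A1 (0.58), PDGFRB (3.44) and CD68 (1.47) rose and CLDN7 (-0.67) fell; PDGFRB had at most 51 counts in any library. The part of these markers in the results was not tested. SGOL1 had 8.54 and 9.13 CPM in shTIP60 hypoxia, against 21.0 and 25.9 CPM in shCDK8 hypoxia (log2 fold change -1.41 ± 0.19, adjusted p = 3.51e-05). BIRC5 had 113 and 106 CPM in shTIP60 hypoxia, against 275 and 270.3 CPM in shCDK8 hypoxia and 276 and 275 CPM in HIF1A-null hypoxia (log2 fold changes -1.31 and -1.33). In both genes the shTIP60 libraries stood far below those of the other line. CDC25B was higher in shTIP60 than in shCDK8 (0.37 ± 0.15, adjusted p = 0.0695) and lower than in HIF1A-null (-1.16 ± 0.16, adjusted p = 2.10e-05). HMMR, lower in both lines than in shNT, had 45.9 and 43.4 CPM in shTIP60 hypoxia and 43.8 and 47.9 CPM in shCDK8 hypoxia (log2 fold change -0.04 ± 0.23, adjusted p = 0.915).

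In normoxia, 7 of 40 genes fell in shTIP60 cells relative to shNT and none rose (17.5% of the 40, against 8.13% of all genes that fell and 10.3% that rose; median of the 40 -0.37). Both shTIP60 libraries lay below both shNT libraries for 31 genes (33.7% of all genes). The 7 were CDK1, CDC25C, BUB1B, TTK, MAD2L1, KIF2C and PRC1, and each also fell in hypoxia; 5.77% of all genes fell in both conditions. CDC25C had 19.1 and 16.7 CPM in shTIP60 normoxia, against 32.3 and 29.1 CPM in shNT normoxia (log2 fold change -0.78 ± 0.16, adjusted p = 0.00315). MAD2L1, the checkpoint protein that sequesters CDC20, had 73.3 and 77.1 CPM in shTIP60 normoxia, against 123 and 125 CPM in shNT normoxia (log2 fold change -0.72 ± 0.19, adjusted p = 0.0148). CDK1 had 101 and 105 CPM in shTIP60 normoxia, against 162 and 167 CPM in shNT normoxia (log2 fold change -0.68 ± 0.19, adjusted p = 0.0209). Within each gene the replicates lay close together and the groups were apart, but none of the 7 calls was kept with every library left out in turn. Calls were fewest without shTIP60 normoxia B, and fewer of all genes were called with any library left out. The call of CDC25C was lost without shTIP60 normoxia B (-0.68), that of MAD2L1 with any single library left out (-0.76 to -0.68) and that of CDK1 with any single library left out (-0.71 to -0.65). The number also moved with the model, to 18 with the replicate block, to 16 with no filter on low counts and to 22 lower and 1 higher in a fit of these 2 groups alone. Most genes were lower in shTIP60 within libraries A (37 of 40 lower, median -0.44) and within libraries B (35 lower, -0.26). Among the cell type markers, in shTIP60 normoxia KRT8 (1.22), KRT18 (1.26), ELF3 (0.99) and CD68 (1.6) rose and EPCAM (-0.71) and CDH1 (-0.72) fell; their part in the result was not tested. BUB3 and KIF18A had their highest levels of any group in shTIP60 normoxia, with 378 and 359 CPM and 77.9 and 80.3 CPM, though not called against shNT (0.15 and 0.24). They were 2 of the 40 with both libraries of this group highest of all, a share near the 5.77% of all genes.

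The response to hypoxia was measured within each line. Marker genes moved with it in every line: COL1A1, CD68 and 5 to 7 of the 8 epithelial markers rose and no epithelial marker fell. PDGFRB, with at most 51 counts in any library, fell in HIF1A-null (-2.08 ± 0.71, adjusted p = 0.0302). It was not called in shNT, shTIP60 or shCDK8. The part of these markers in the results was not tested. In shTIP60 cells 24 of the 40 genes fell and 2 rose (60% and 5% of the 40, against 19.8% and 19.4% of all genes; median of the 40 -0.51). Both hypoxia libraries lay below both normoxia libraries for 36 (40.2% of all genes) and above them for 3 (38.1%). CCNB1 had 124 and 119.5 CPM in shTIP60 hypoxia, against 271 and 258 CPM in shTIP60 normoxia (log2 fold change -1.12 ± 0.14, adjusted p = 1.75e-05). FOXM1 had 88.4 and 79.2 CPM in shTIP60 hypoxia, against 197 and 199 CPM in shTIP60 normoxia (log2 fold change -1.24 ± 0.23, adjusted p = 5.89e-04). KIF11 had 33.7 and 30.5 CPM in shTIP60 hypoxia, against 59.6 and 56.8 CPM in shTIP60 normoxia (log2 fold change -0.86 ± 0.16, adjusted p = 6.15e-04). For all 3 genes hypoxia brought both libraries to 0.46, 0.42 and 0.55 times the normoxia level, well apart from the normoxia pair. All 5 genes of the Polo and Aurora group fell in this line (PLK1, AURKA, AURKB, TPX2 and BIRC5), and 4 each of the checkpoint, kinetochore and kinesin genes. The change was alike within libraries A (median -0.49) and within libraries B (-0.54), with 37 of 40 lower in each. Calls were fewest without shTIP60 normoxia A, and fewer of all genes were called with any library left out. CCNB1, BIRC5, BUB3, NDC80, KIF11, KIF23, KIF18A, DLGAP5, PRC1 and FOXM1 kept their calls in every case.

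In shNT cells 8 genes fell and 4 rose in hypoxia (20% and 10% of the 40, against 20% and 20.7% of all genes). The median of the 40 was -0.22, and neither share of calls stood above the background. Both hypoxia libraries lay below both normoxia libraries for 18 of the 40 (34.9% of all genes) and above them for 4 (34.9%). CCNB1 had 181 and 215 CPM in shNT hypoxia, against 373 and 298 CPM in shNT normoxia (log2 fold change -0.76 ± 0.14, adjusted p = 4.40e-04), and it was the 1 gene of the 12 whose call was kept whichever library was left out. FOXM1 had 111 and 119 CPM in shNT hypoxia, against 217 and 179.9 CPM in shNT normoxia (log2 fold change -0.79 ± 0.23, adjusted p = 0.012), a call lost without shNT normoxia A (-0.65) or shNT hypoxia A (-0.74). The groups of both genes were apart, with shNT normoxia A highest. BIRC5, BUB3, MAD2L1, KIF11, KIF23 and PRC1 were the other genes that fell (log2 fold changes -0.65 to -0.44), and CDC25B, KIF20A, ANLN and UBE2C rose. The replicate pairs differed: within libraries A 36 of 40 genes were lower in hypoxia (median -0.43), but within libraries B 19 were lower and 21 higher (median 0.00). With the replicate block 15 fell and 4 rose. Calls were fewest without shNT normoxia A or shNT hypoxia A, in fits where fewer of all genes were called too. Scaling by library totals in place of TMM moved the median of all genes by -0.16 to -0.28 in the 4 hypoxia comparisons. With it, 19 of the 40 fell and 2 rose in shNT cells. The 20% and 20.7% of all genes given above are from the main fit, not from the block or library totals.

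In shCDK8 cells 1 gene fell, CCNB1, and 3 rose, CDC25B, ANLN and UBE2C (11% and 13.8% of all genes; median of the 40 -0.08). CCNB1 had 225 and 234 CPM in shCDK8 hypoxia, against 309 and 333 CPM in shCDK8 normoxia (log2 fold change -0.48 ± 0.14, adjusted p = 0.0179), a call lost without shCDK8 normoxia B (-0.43), shCDK8 hypoxia A (-0.46) or shCDK8 hypoxia B (-0.51). The call of ANLN (0.57) was lost without shCDK8 normoxia A (0.44) or shCDK8 hypoxia B (0.42), while that of UBE2C was kept in every case. The share of the 40 that was called was near or below the background in both directions. The sign was negative for 26 of the 40, and the median was -0.02 within libraries A and -0.13 within libraries B. Library totals gave 5 lower and 2 higher, the replicate block 3 lower and 5 higher, and leaving out a library 1 to 5 calls, with 1 without shCDK8 hypoxia B.

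In HIF1A-null cells 12 of the 40 were called (38% of all genes), of which 11 rose and 1, AURKA, fell (27.5% and 2.5% of the 40, against 18.9% and 19.1% of all genes). The median of the 40 was 0.21 with TMM but -0.06 with library totals, where the median of all genes was -0.28 and 4 of the 40 rose and 7 fell. CDC25B had 952 and 1113 CPM in HIF1A-null hypoxia, against 407 and 444 CPM in HIF1A-null normoxia (log2 fold change 1.28 ± 0.16, adjusted p = 1.68e-05). NUSAP1 had 169 and 199 CPM in HIF1A-null hypoxia, against 144 and 115 CPM in HIF1A-null normoxia (log2 fold change 0.51 ± 0.16, adjusted p = 0.0212). KIF2C had 188 and 186 CPM in HIF1A-null hypoxia, against 158 and 112 CPM in HIF1A-null normoxia (log2 fold change 0.47 ± 0.16, adjusted p = 0.0293). CDC25B stood far clear of its normoxia level, whereas for NUSAP1 and KIF2C the gap was narrowed by HIF1A-null normoxia A. The call of NUSAP1 was lost without HIF1A-null normoxia B (0.35) or HIF1A-null hypoxia B (0.38), and that of KIF2C without HIF1A-null normoxia B (0.24), HIF1A-null hypoxia A (0.46) or HIF1A-null hypoxia B (0.48). AURKA fell (-0.40 ± 0.15, adjusted p = 0.0426) but was not called without HIF1A-null normoxia A (-0.29), HIF1A-null hypoxia A (-0.33) or HIF1A-null hypoxia B (-0.48). CDK1, BUB1, CENPA, KIF20A, ANLN, CDC20, UBE2C and TOP2A, the enzyme that untangles DNA, were the others that rose. CDC25B, ANLN and UBE2C kept their calls whichever library was left out, and 3 calls in all were left without HIF1A-null hypoxia B. A fit of these 2 groups alone called 4 genes, all higher. Within libraries A 22 of 40 were lower (median -0.04), and within libraries B 34 were higher (median 0.49).

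**Figure D3:**
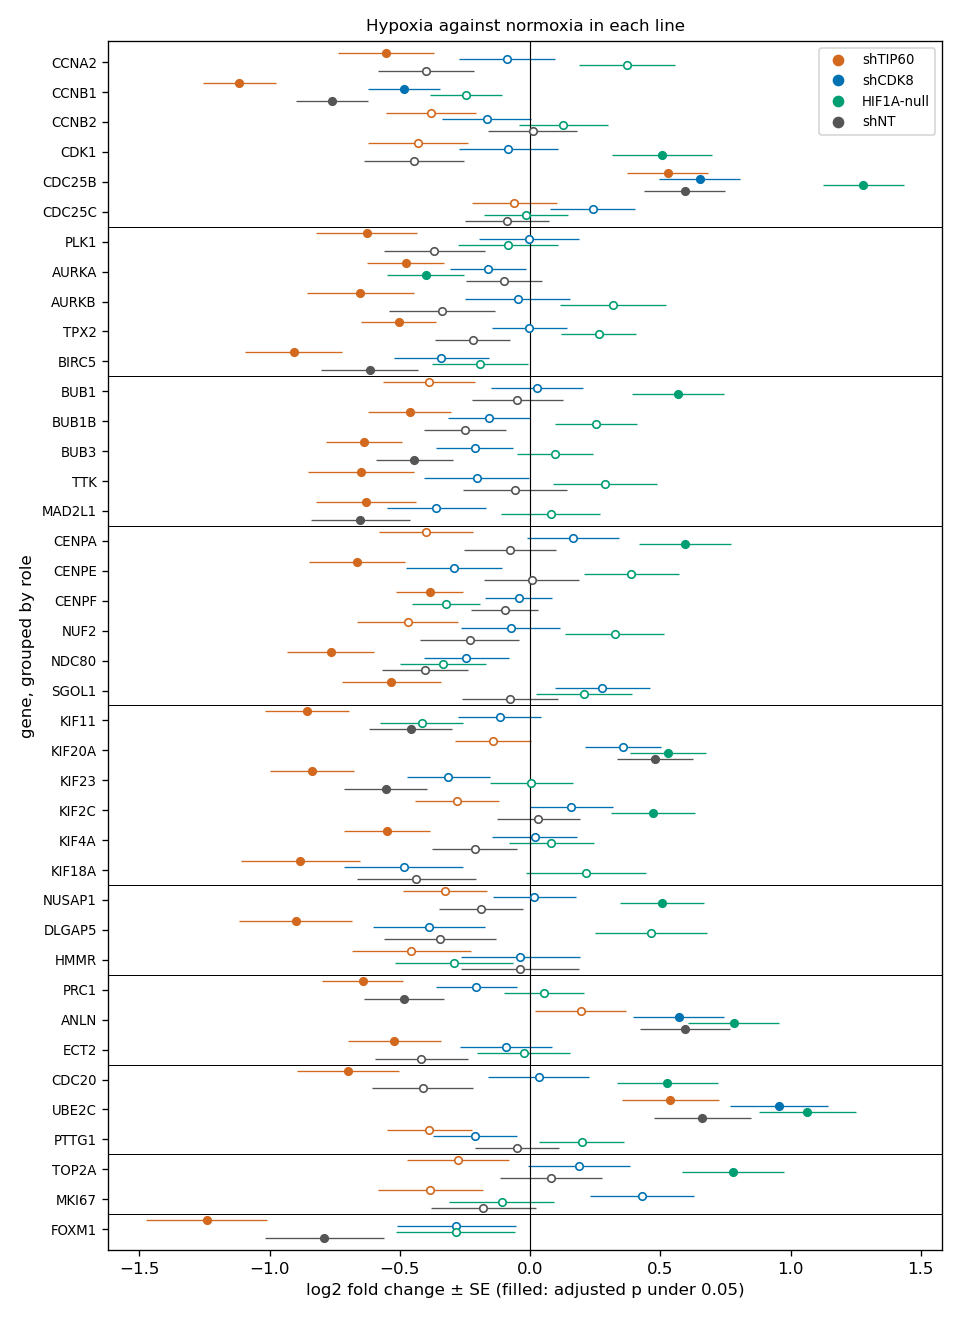
Log2 fold change ± SE of each gene in hypoxia against normoxia within each of the 4 lines, by role; filled points have an adjusted p under 0.05. CDC25B and UBE2C are filled and right of 0 in every line, CCNB1 lies left of 0 in every line with shTIP60 farthest at -1.12, and the HIF1A-null point lies right of the shTIP60 point for all 40 genes.

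Across the 4 lines, 2 genes rose with hypoxia in each (5% of the 40, against 6.64% of all genes): CDC25B, the phosphatase that starts CDK1 activation at centrosomes, and UBE2C, the ubiquitin-conjugating enzyme of the anaphase-promoting complex. UBE2C had 137 and 134 CPM in shTIP60 hypoxia and 93.4 and 93.6 CPM in shTIP60 normoxia (log2 fold change 0.54 ± 0.19, adjusted p = 0.0313), the weakest of its 4 responses and lost with any single library left out (0.52 to 0.55). In shCDK8 cells it had 178 and 220.3 CPM in hypoxia and 101 and 103.7 CPM in normoxia (log2 fold change 0.96 ± 0.19, adjusted p = 0.0017). In HIF1A-null cells UBE2C had 213 and 204 CPM in hypoxia and 125 and 74.9 CPM in normoxia (log2 fold change 1.06 ± 0.19, adjusted p = 4.02e-04). In shNT cells UBE2C had 198 and 199.9 CPM in hypoxia and 140.1 and 112 CPM in normoxia (log2 fold change 0.66 ± 0.19, adjusted p = 0.00983), a call lost without shNT normoxia B (0.51). The UBE2C groups were apart in all 4 lines, hypoxia above normoxia.

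CDC25B had 499.8 and 421 CPM in shTIP60 hypoxia and 325 and 314 CPM in shTIP60 normoxia (log2 fold change 0.53 ± 0.15, adjusted p = 0.013), a call lost without shTIP60 normoxia A (0.55), shTIP60 normoxia B (0.50) or shTIP60 hypoxia A (0.40). With library totals neither CDC25B (0.31) nor UBE2C (0.32) was called in shTIP60 cells, though both were in the other 3 lines. In shCDK8 cells CDC25B had 338 and 372 CPM in hypoxia and 261 and 192 CPM in normoxia (log2 fold change 0.65 ± 0.15, adjusted p = 0.00624), a call lost without shCDK8 normoxia B (0.45) or shCDK8 hypoxia B (0.58). In shNT cells it had 371 and 418 CPM in hypoxia and 258 and 265 CPM in normoxia (log2 fold change 0.59 ± 0.15, adjusted p = 0.00617), a call lost without shNT hypoxia B (0.50). Each line's hypoxia pair lay above its normoxia pair, and the HIF1A-null hypoxia pair above all other libraries.

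ANLN rose in 3 lines and not in shTIP60. It had 204 and 183 CPM in shTIP60 hypoxia and 173 and 165 CPM in shTIP60 normoxia (log2 fold change 0.19 ± 0.17, adjusted p = 0.401). In shNT cells ANLN had 261 and 372 CPM in shNT hypoxia and 221 and 198 CPM in shNT normoxia (log2 fold change 0.59 ± 0.17, adjusted p = 0.0126). The ranges were apart in both lines; the shNT call was lost without shNT normoxia B (0.52) or shNT hypoxia B (0.31), and the shTIP60 response was not called as different from that of shNT (-0.40 ± 0.25, adjusted p = 0.96). KIF20A rose in shNT (0.48 ± 0.15, adjusted p = 0.0156; lost without shNT normoxia B (0.35) or shNT hypoxia B (0.30)) and in HIF1A-null (0.53 ± 0.15, adjusted p = 0.00977; lost without HIF1A-null normoxia B (0.41) or HIF1A-null hypoxia B (0.50)). With library totals ANLN was called in HIF1A-null (0.51) but not in shNT (0.40) or shCDK8 (0.40), and KIF20A in neither shNT (0.28) nor HIF1A-null (0.26), where CDC20 was not called either (0.27). CDC20 was the 1 gene called in opposite directions (2.5% of the 40, against 1.89% of all genes), falling in shTIP60 (-0.70 ± 0.20, adjusted p = 0.0101) and rising in HIF1A-null (0.53 ± 0.19, adjusted p = 0.0431). It had 196 and 175 CPM in shTIP60 hypoxia and 319.8 and 282 CPM in shTIP60 normoxia, but 502 and 430.4 CPM in HIF1A-null hypoxia and 402 and 245 CPM in HIF1A-null normoxia. The HIF1A-null normoxia libraries of CDC20 were far apart, and that call was lost without HIF1A-null normoxia B (0.21), HIF1A-null hypoxia A (0.41) or HIF1A-null hypoxia B (0.63); the shTIP60 call was lost without shTIP60 normoxia A (-0.61) or shTIP60 hypoxia B (-0.62). At the other end, 9 genes fell in at least 2 lines (22.5% of the 40, against 19.5% of all genes; CCNB1, AURKA, BIRC5, BUB3, MAD2L1, KIF11, KIF23, PRC1 and FOXM1), and 6 were called in no line (15%, against 35.7%; CCNB2, CDC25C, NUF2, HMMR, PTTG1 and MKI67).

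**Figure D4:**
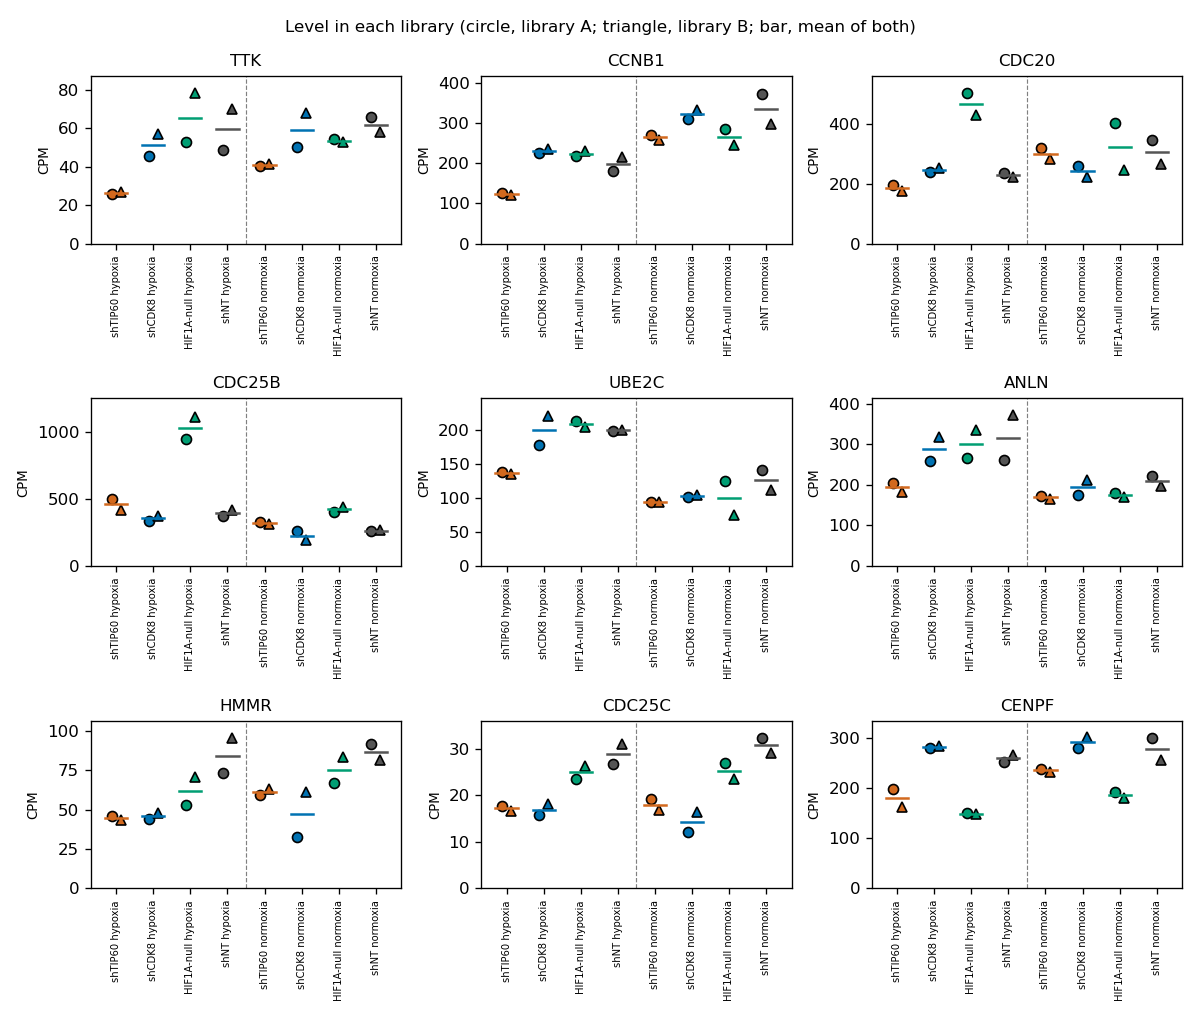
Level in CPM of 9 genes in each library (circle, library A; triangle, library B; bar, mean of the 2 libraries), with hypoxia groups left of the dashed line and normoxia groups right of it. TTK, CCNB1 and CDC20 are lowest in shTIP60 hypoxia, and CDC25B is highest in HIF1A-null hypoxia at 952 and 1113 CPM. HMMR and CDC25C are low in shCDK8 in both oxygen conditions, and CDC25C is low in shTIP60 as well.

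The responses of the lines were then compared with each other. None of the 40 genes differed between shTIP60 and shNT in their hypoxia response with edgeR's quasi-likelihood test, with DESeq2 or with the replicate block (0.0322% of all genes were called with edgeR in either direction), and 2 had an unadjusted p under 0.05. The sign was negative for 37 of 40 (median -0.31); within libraries A the median was -0.06 and within libraries B -0.51. The larger shortfall of shTIP60 in hypoxia than in normoxia was therefore not established by this test. For shCDK8 minus shNT edgeR called 0 (0.0387% of all genes), 1 had an unadjusted p under 0.05, DESeq2 called 0 and the replicate block 1. Against the response of shTIP60, that of shCDK8 gave 0 calls with edgeR and with DESeq2 (0.0387%), 14 at an unadjusted p under 0.05 and 3 with the block, with a positive sign for all 40 genes (median 0.44).

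For HIF1A-null, the hypoxia response lay above that of shNT for 4 genes, CDK1, CDC25B, NUSAP1 and CDC20, and below it for none (10% and 0% of the 40, against 7.53% and 8.92% of all genes; median of the 40 0.46). The difference was 0.95 ± 0.27, adjusted p = 0.0256 for CDK1 and 0.94 ± 0.28, adjusted p = 0.0296 for CDC20. CDK1 had 154 and 199 CPM in HIF1A-null hypoxia and 129.5 and 119 CPM in HIF1A-null normoxia, set beside 100.5 and 141 CPM in shNT hypoxia and 162 and 167 CPM in shNT normoxia. CDK1 rose in HIF1A-null hypoxia, while in shNT hypoxia it was lower without a call (-0.45 ± 0.19, adjusted p = 0.0742). The number of calls depended on the model: 17 were called with the block, 12 with no filter, 2 with library totals or with a filter at a mean of 5 CPM, and 0 in a fit of the 4 groups alone. Calls of the 40 moved both ways with the library left out, as did those of all genes. Those of the 40 were fewest without shNT normoxia A, HIF1A-null normoxia B or shNT hypoxia A. Within libraries A (36 of 40 positive, median 0.50) and within libraries B (35 positive, 0.50) the medians were alike.

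Set against shTIP60, a comparison added after the values were seen, the HIF1A-null response was higher for 21 genes and lower for none (6.56% and 8.05% of all genes; median of the 40 0.74, with a positive sign for all 40). They included 4 of 5 checkpoint genes, 4 of 6 kinesins and 4 of 6 genes of the cyclin, CDK1 and CDC25 group. DLGAP5 had 88.5 and 142 CPM in HIF1A-null hypoxia and 79.7 and 87.4 CPM in HIF1A-null normoxia, set beside 42.7 and 39.6 CPM in shTIP60 hypoxia and 78.1 and 75.4 CPM in shTIP60 normoxia (difference 1.36 ± 0.31, adjusted p = 0.00837). CCNB1 (0.87 ± 0.20, adjusted p = 0.00864) and CDC20 (1.23 ± 0.28, adjusted p = 0.00867) were, with DLGAP5, the 3 genes whose calls were kept with every library left out in turn. Calls of the 40 were fewest without shTIP60 normoxia A or shTIP60 hypoxia B, and calls of all genes also moved with the library left out. Within libraries A the median was 0.50 and within libraries B 0.98.

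Apart from shTIP60, the altered lines had 2 to 9 of these genes called against shNT in either oxygen condition. In shCDK8 cells CDC25C and HMMR, a spindle and hyaluronan-binding protein, fell in both normoxia, where 7.27% of all genes fell and 5.8% rose, and hypoxia, where 3 of the 40 were called in either direction (27.9% of all genes) and 13.4% of all genes fell. In normoxia both shCDK8 libraries lay below both shNT libraries for 6 genes (26.8% of all genes). In hypoxia both lay above for 18 genes (34.4% of all genes) and below for 3 (30.9%). Of the 40, 32 were higher in shCDK8 hypoxia within libraries A and 28 within libraries B. CDC25C had 12.2 and 16.4 CPM in shCDK8 normoxia, against 32.3 and 29.1 CPM in shNT normoxia (log2 fold change -1.10 ± 0.16, adjusted p = 2.50e-04). In hypoxia CDC25C had 15.8 and 18.1 CPM in shCDK8 cells, against 26.7 and 31.1 CPM in shNT hypoxia (log2 fold change -0.77 ± 0.16, adjusted p = 0.00242). Its groups were apart in both conditions and the calls were kept whichever library was left out. CDC25C was low in shTIP60 cells too, with means of 17.9 CPM in shTIP60 normoxia and 17.2 CPM in shTIP60 hypoxia. HMMR had 32.5 and 61.4 CPM in shCDK8 normoxia, against 91.5 and 81.6 CPM in shNT normoxia (log2 fold change -0.88 ± 0.23, adjusted p = 0.0169). In hypoxia HMMR had 43.8 and 47.9 CPM in shCDK8 cells, against 73.0 and 95.4 CPM in shNT hypoxia (log2 fold change -0.88 ± 0.23, adjusted p = 0.00979). The HMMR libraries of shCDK8 normoxia were far apart, and the call was lost without shNT normoxia A (-0.79), shNT normoxia B (-0.96) or shCDK8 normoxia A (-0.49). In hypoxia it was lost without shNT hypoxia B (-0.67) or shCDK8 hypoxia A (-0.81). BIRC5 was the 1 gene that rose, in hypoxia (14.4% of all genes rose), with 275 and 270.3 CPM in shCDK8 hypoxia, against 181 and 188 CPM in shNT hypoxia (log2 fold change 0.56 ± 0.18, adjusted p = 0.0325). Its 2 pairs were tight and apart, yet the call was lost with any single library left out (0.53 to 0.60). Among the cell type markers, in shCDK8 normoxia KRT8 (0.75), KRT18 (1.1), ELF3 (0.96) and CD68 (1.40) rose and EPCAM (-0.40), KRT19 (-0.77), CDH1 (-1.02), COL1A1 (-0.49) and PDGFRB (-1.95) fell. In shCDK8 hypoxia KRT8 (0.72), KRT18 (0.92) and CD68 (0.86) rose and EPCAM (-0.32), KRT19 (-1.09), CDH1 (-0.75), COL1A1 (-0.69) and PDGFRB (-1.89) fell; the part of these markers was not tested. With the block 4 genes fell in normoxia, and 3 fell and 3 rose in hypoxia; library totals gave 2 and 2 in hypoxia. Over the 40 genes the shCDK8 median against shNT was -0.05 in normoxia (-0.25 within libraries A, 0.17 within B) and 0.16 in hypoxia (0.21 and 0.11).

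In HIF1A-null cells CDC25B rose and CENPF fell relative to shNT in both conditions. CDC25B had 407 and 444 CPM in HIF1A-null normoxia, against 258 and 265 CPM in shNT normoxia (log2 fold change 0.70 ± 0.15, adjusted p = 0.00614). In hypoxia CDC25B had 952 and 1113 CPM in HIF1A-null cells, against 371 and 418 CPM in shNT hypoxia (log2 fold change 1.39 ± 0.16, adjusted p = 5.05e-06), 2.62 times the shNT level. CENPF had 192 and 180.1 CPM in HIF1A-null normoxia, against 299 and 254 CPM in shNT normoxia (log2 fold change -0.57 ± 0.13, adjusted p = 0.00708). In hypoxia CENPF had 149 and 148 CPM in HIF1A-null cells, against 251 and 266 CPM in shNT hypoxia (log2 fold change -0.80 ± 0.13, adjusted p = 1.65e-04). For both genes the HIF1A-null libraries were apart from the shNT libraries in both conditions, and the hypoxia calls were kept whichever library was left out; in normoxia they were lost without shNT normoxia A (0.68) for CDC25B and without shNT normoxia A (-0.45) for CENPF. KIF18A also fell in normoxia, with 36.9 and 36.1 CPM in HIF1A-null cells, against 63.6 and 70.2 CPM in shNT cells (log2 fold change -0.87 ± 0.23, adjusted p = 0.0187), a call lost with any single library left out (-0.94 to -0.80). In normoxia 1 of the 40 rose (2.5%, against 5.86% of all genes) and 2 fell (5%, against 5.86%), while with the replicate block 1 rose and 4 fell. Most of the 40 were lower in HIF1A-null normoxia, 36 within libraries A and 35 within libraries B, and both HIF1A-null libraries lay below both shNT libraries for 17 (26.3% of all genes). Among the cell type markers KRT8 (0.95), KRT18 (1.00), CLDN4 (0.62) and CD68 (0.78) rose and EPCAM (-0.53) and ELF3 (-0.62) fell in HIF1A-null normoxia; their part was not tested.

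In hypoxia 9 genes were called (41.1% of all genes): 7 rose in HIF1A-null cells relative to shNT (17.5% of the 40, against 20.3% of all genes) and 2 fell, CENPF and AURKA (5%, against 20.8%). Neither share exceeded the background. Among the cell type markers KRT8 (0.97), KRT18 (0.66), CLDN4 (0.62) and CLDN7 (0.82) rose and KRT19 (-0.51), CDH1 (-0.63), ELF3 (-2.87), COL1A1 (-0.49) and PDGFRB (-2.80) fell in the same comparison, and their part in it was not tested. Library totals gave 3 higher and 2 lower, and the replicate block 11 and 3. CDC20 had 502 and 430.4 CPM in HIF1A-null hypoxia, against 237 and 221 CPM in shNT hypoxia (log2 fold change 1.03 ± 0.20, adjusted p = 6.49e-04), and its call was kept with every library left out. AURKA had 38.6 and 42.9 CPM in HIF1A-null hypoxia, against 55 and 65.6 CPM in shNT hypoxia (log2 fold change -0.56 ± 0.15, adjusted p = 0.00633), a call lost without shNT hypoxia B (-0.43). AURKB, its relative, had 135 and 120.2 CPM in HIF1A-null hypoxia and 89.8 and 82.1 CPM in shNT hypoxia (log2 fold change 0.57 ± 0.20, adjusted p = 0.0352). The pair was called in opposite directions, the AURKB call being lost with any single library left out (0.48 to 0.65). CCNA2, CDK1, BIRC5 and NUSAP1 were the others that rose (0.52, 0.55, 0.58 and 0.45). The call of CCNA2 was lost without shNT hypoxia A (0.41), HIF1A-null hypoxia A (0.43) or HIF1A-null hypoxia B (0.60), and that of CDK1 without shNT hypoxia A (0.32) or HIF1A-null hypoxia B (0.35). The call of BIRC5 was lost with any single library left out (0.55 to 0.61), and that of NUSAP1 without shNT hypoxia A (0.33) or HIF1A-null hypoxia B (0.33). The median over the 40 was 0.17 (0.17 within libraries A, 0.11 within B) and 4 to 10 calls were made with a library left out, the fewest without HIF1A-null hypoxia B. In normoxia, leaving out a library gave 0 to 9 calls, 0 without shNT normoxia A, and the median over the 40 was -0.28 (-0.25 and -0.30).

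**Figure D5:**
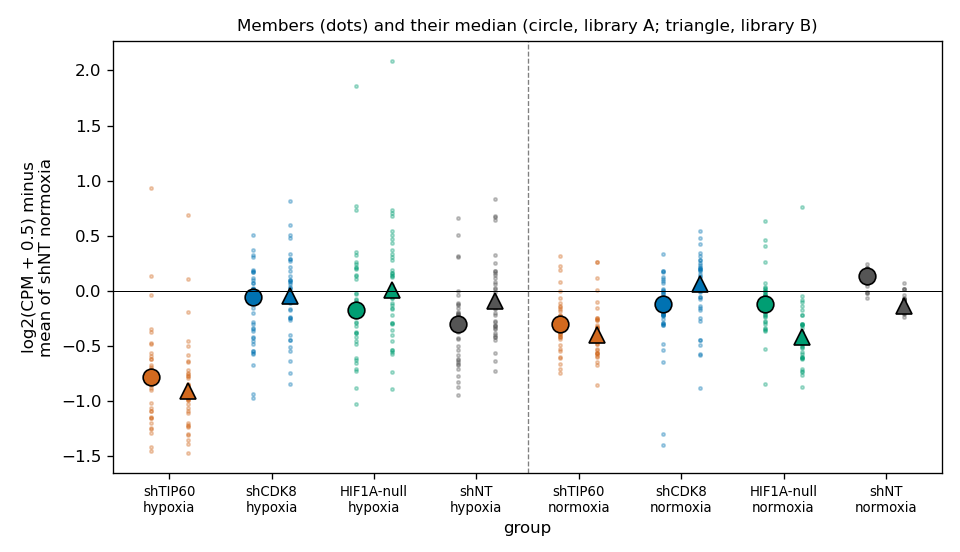
Every gene (dots) and the median of the 40 genes (circle, library A; triangle, library B) in each library, as log2(CPM + 0.5) minus the mean of shNT normoxia. The shTIP60 hypoxia medians are the lowest, down to -0.91, and the 2 shNT normoxia medians are themselves apart, with the higher at 0.14.

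Other mitotic genes and genes of DNA replication, taken as whole lists, were read in the same comparison of hypoxic shTIP60 cells with hypoxic shNT cells. Of all genes tested, 10.5% fell and 11.3% rose in that comparison. In a list of 20 condensin and cohesin genes, which shape and hold together the chromosomes, 12 fell and none rose (median -0.59). NIPBL, the cohesin loader (-0.78 ± 0.15, adjusted p = 0.00143), and NCAPG, a condensin subunit (-0.82 ± 0.16, adjusted p = 0.00161), had the smallest adjusted p. Of 20 other spindle and cytokinesis genes 9 fell (median -0.52), with the smallest adjusted p for ASPM, a spindle-pole protein (-0.88 ± 0.16, adjusted p = 9.08e-04). Of 30 other kinetochore genes 11 fell (median -0.33), led by SKA3, of a complex that couples kinetochores to microtubules (-0.99 ± 0.17, adjusted p = 5.24e-04). Of 14 regulators of mitotic entry 3 fell (median -0.34), ARHGAP11A (-0.81), BORA, which helps activate PLK1 (-0.88), and the centrosomal kinase NEK2 (-0.59). Of 16 genes listed with the anaphase-promoting complex, UBE2S included, 2 fell, ANAPC4 (-0.73) and CDC27 (-0.48), and 1 rose, ANAPC7 (0.41), with a median of -0.09. Of 11 genes of the MuvB complex, MYBL2 and E2F partners 1 fell, LIN54, which binds the CHR (-0.53 ± 0.18, adjusted p = 0.0419). Of 35 genes of DNA replication and S phase 3 fell, RFC5 (-0.70), RRM1 (-0.53) and POLA1 (-0.55), and 1 rose, CCNE1 (0.68), with a median of -0.24. In the anaphase-promoting complex, MuvB and replication lists the shares that fell lay near that of all genes. The genes named here in lists with 3 or fewer calls in a direction were chosen after their values were seen.

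In hypoxia against normoxia, 33 of the 35 replication genes fell in shTIP60 cells (median -1.27; 19.8% of all genes fell) and 17 in shCDK8 cells (-0.52; 11%). In HIF1A-null cells 14 fell and 2 rose (-0.42; 19.1% fell and 18.9% rose), and in shNT cells 29 fell (-1.34; 20%). The medians of the 40 mitosis genes in the same lines were -0.51 in shTIP60, -0.08 in shCDK8, 0.21 in HIF1A-null and -0.22 in shNT. The smallest adjusted p among the replication genes belonged to GINS3, of the replicative helicase, in shTIP60 (-2.44 ± 0.23, adjusted p = 1.30e-06) and to CCNE2, a cyclin of the G1 to S transition, in shNT (-2.78 ± 0.24, adjusted p = 4.11e-07). The windows of 30 replication genes held the CHR letters in 2 (6.67%), CCAAT in 18 (60%) and the core letters of the hypoxia response element in 20 (66.7%), beside 72.7% of the mitosis windows for the last. Among the mitosis genes, 20 of 24 with the CHR letters and 6 of 9 without them fell in shTIP60 relative to shNT in hypoxia, with medians of -0.70 in both, and 5 of the 7 with no window fell.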

How the data were processed

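Counts of reads per gene were deposited for 16 poly(A) libraries in 1 table. Per the submitters' processing notes, reads were handled on hg19 (GRCh37) with GSNAP, with HTSeq 0.5.4p5, and with DESeq 1.14.0 in R 3.0.3; the annotation and the strand setting are not given in the sources used here. The table's columns give line, oxygen and a library number but not the replicate numbers of the sample titles, so columns were tied to groups only, and the 2 runs of library numbers (A and B) served as the replicate block. Over genes, the A minus B differences of the 8 groups correlated at 0.14 to 0.64 in all 28 pairs of groups. On that ground the runs were taken to pair the libraries, and what a run shares is not given. The mitosis genes as a set had no common direction. Their median A minus B in normoxia was 0.27 in shNT, 0.07 in shTIP60, 0.30 in HIF1A-null and -0.24 in shCDK8. In hypoxia it was -0.25 in shNT, 0.10 in shTIP60, -0.12 in shCDK8 and -0.15 in HIF1A-null. Whether the pairing holds for these genes was not tested. Every column was mapped, and 0 were left out.

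edgeR 4.0.16 (R 4.3.3, with limma 3.58.1) was run on the counts. filterByExpr (minimum count 10, total 15) left 15520 of 23669 genes (65.6%). TMM scaling and 1 robust quasi-likelihood fit over the 8 groups followed (8 residual degrees of freedom, and a biological coefficient of variation of 0.132), with Benjamini-Hochberg adjustment over all genes and a threshold of 0.05. There were 13 comparisons and 4 more added after member values were seen. Plotted levels are log2(CPM + 0.5). Alternatives were other scalings and filters, the block, DESeq2 1.42.0, a test against 1.5-fold, a fit of only the groups compared, and each library left out. The fit was tested on simulated counts drawn independently for each library, which hold none of the differences that libraries A and B share. Members and lists were chosen with earlier results of these data known. Genes named by rule were the most abundant of each role and, per comparison, up to 3 called with the smallest adjusted p; other members were named after their values were seen. Squared differences between replicate libraries were 8.56 to 64.8 times those of counting alone. RefSeq promoter windows were matched to GRCh37, and positions, lengths and overlaps come from GENCODE 44 on GRCh37.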

Additional observations from a re-analysis of the deposited data

Results flagged for a closer look

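The hypoxia response of HIF1A-null cells differed from that of another line, by the test of the difference itself, in 25 cases. Relative to shNT the log2 difference of the 2 responses was called for CDK1 (0.95), CDC25B (0.69), NUSAP1 (0.70) and CDC20 (0.94). Relative to shTIP60 it was called for CCNA2 (0.92), CCNB1 (0.87), CDK1 (0.94), CDC25B (0.75), AURKB (0.97), TPX2 (0.77), BUB1 (0.96), BUB1B (0.72), BUB3 (0.74), TTK (0.94), CENPA (0.99), CENPE (1.05), KIF20A (0.67), KIF23 (0.84), KIF2C (0.75), KIF18A (1.10), NUSAP1 (0.83), DLGAP5 (1.36), PRC1 (0.70), CDC20 (1.23) and TOP2A (1.05). Those were 4 of the 40 relative to shNT (10%, against 7.53% of all genes) and 21 relative to shTIP60 (52.5%, against 6.56%). With each library left out in turn, 0 of the 4 and 3 of the 21 calls (CCNB1, DLGAP5 and CDC20) were kept throughout, and a fit of only the groups compared called 0 relative to shNT. All 25 differences were positive, so in each case the HIF1A-null response was the higher one. The second set belongs to a comparison added after the values were seen, and both sets use the same HIF1A-null libraries. In HIF1A-null normoxia library A lay above B for 34 of the 40 genes (median 0.30 on the log2 scale), and in the hypoxia libraries of that line HIF1A itself was at 48.9 ± 12.4 CPM, against 65.9 ± 6.55 CPM in shNT hypoxia (SD, n = 2 each). In the same test the HIF1A-null response was lower relative to shNT for the markers KRT19 (-0.69), CDH1 (-0.80), ELF3 (-2.25) and COL1A1 (-0.69), and relative to shTIP60 for CDH1 (-1.13) and ELF3 (-1.64). The part of these values in the differences was not tested.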

How the results depend on the processing

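None of the 201 called member results changed direction under any alternative. The replicate block, DESeq2 and no filter kept all 201 calls, other size factors (RLE) 200, library totals 175, a mean of 5 CPM as filter 181, fits without the other groups 180 and a test against 1.5-fold 34; 82 calls were kept with every library left out in turn. A fit without a library leaves 1 in its group, which is assumed to vary like the others. In the counts of members called that moved by over 1.5 times, the cause was not tested. Library totals gave 21 in hypoxia against normoxia in shNT, 7 in the same comparison in shCDK8, 5 in HIF1A-null against shNT in hypoxia and 2 in the response of HIF1A-null minus that of shNT. No filter gave 16 for shTIP60 against shNT in normoxia, 5 for shCDK8 and 14 for HIF1A-null against shNT in hypoxia, 12 for the response of HIF1A-null minus shNT and 2 for that of shCDK8 minus shTIP60; the mean of 5 CPM gave 5 for HIF1A-null against shNT in hypoxia and 2 for the response of HIF1A-null minus shNT. With the replicate block, the pairing of libraries gave 19 in shNT and 8 in shCDK8 for hypoxia against normoxia, 18, 4 and 5 for shTIP60, shCDK8 and HIF1A-null against shNT in normoxia, 6 and 14 for shCDK8 and HIF1A-null against shNT in hypoxia, and 1, 17 and 3 for the responses of shCDK8 minus shNT, HIF1A-null minus shNT and shCDK8 minus shTIP60; other counts stayed within 1.5 times. Against 1.5-fold, hypoxia against normoxia gave 2 in shTIP60, 0 in shCDK8, 2 in HIF1A-null and 0 in shNT; the lines against shNT gave 0, 1 and 0 in normoxia and 1, 0 and 2 in hypoxia (shTIP60, shCDK8, HIF1A-null); the responses of HIF1A-null gave 0 against either line; and shTIP60 gave 9 against shCDK8 and 17 against HIF1A-null in hypoxia. Only the groups compared gave 4 in HIF1A-null for hypoxia against normoxia, 23 for shTIP60 against shNT in normoxia and 0 for the response of HIF1A-null minus shNT. With a library left out, hypoxia against normoxia ranged over 10 to 18 in shTIP60, 1 to 5 in shCDK8, 3 to 14 in HIF1A-null and 5 to 11 in shNT; shTIP60, shCDK8 and HIF1A-null against shNT over 0 to 6, 1 to 2 and 0 to 9 in normoxia and 12 to 29, 1 to 3 and 4 to 10 in hypoxia; the responses of HIF1A-null over 0 to 15 minus shNT and 3 to 24 minus shTIP60; and shTIP60 in hypoxia over 27 to 31 against shCDK8 and 25 to 32 against HIF1A-null; the other 3 differences of responses gave 0 throughout. The comparisons of shTIP60 with shCDK8 or HIF1A-null and of the responses minus shTIP60 were chosen after seeing the data.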

Other observations

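Genes outside the 40 were higher in hypoxic cells of 2 other lines than in hypoxic shNT cells. Of the 35 genes of DNA replication and S phase, 20 rose and 0 fell in shCDK8 hypoxia (median 0.62; 14.4% of all genes rose), and 22 rose and 0 fell in HIF1A-null hypoxia (median 0.68; 20.3% of all genes rose). Of the 30 other kinetochore genes, 13 rose and 0 fell in shCDK8 hypoxia (median 0.41), and 14 rose and 0 fell in HIF1A-null hypoxia (median 0.38). In the same comparisons 1 of the 40 mitosis genes rose and 2 fell in shCDK8 hypoxia, and 7 rose and 2 fell in HIF1A-null hypoxia. Both comparisons use the same shNT hypoxia libraries.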
